A study of Homo sapiens with 16 samples.

Results

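The genes described here are named as proteins of the cytosolic ribosome, the particle that translates messenger RNA in every cell. They were taken from a table of read counts by symbol: RPL or RPS followed by a number and at most a short copy letter or digit, or RPSA, RPLP0, RPLP1 or RPLP2, with at least 1600 reads summed over all libraries. The rule found 81 genes among the 62754 rows of the table, by name 32 of the small (40S) subunit, 46 of the large (60S) subunit and 3 of the stalk. It goes by symbol, so a gene such as FAU, described below, is outside it. RPL39L with 665 reads, RPL3L with 10 and RPL10L with 4 matched by name and lay below the read rule, and RPS10 with 1690 reads and RPL17 with 2565 were among the members just inside it. The rule used the read sum over all libraries and no difference between treatments.

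The cultures were made from HUES8 (HUES08 in the labels), an established line of human embryonic stem cells, by planar differentiation towards islet cells, and whole cultures were sequenced as bulk total RNA depleted of ribosomal RNA. A computational tool, DBSOMA, had picked compounds that might act on the maturation of insulin-producing beta cells, and 7 of them were added, each in 2 cultures. They were colchicine at 10 nM, a blocker of tubulin polymerisation, epirizole at 2.5 uM, an anti-inflammatory drug, Ly-294002 at 120 nM, an inhibitor of PI3 kinases, and moxifloxacin at 1.1 uM, a fluoroquinolone antibiotic. The others were rottlerin at 1.23 uM, used as a kinase inhibitor, vardenafil at 125 nM, an inhibitor of phosphodiesterase 5, and rimonabant at 125 nM, which blocks the cannabinoid receptor CNR1. The solvent DMSO alone was given to 2 further cultures. All 8 groups were unedited (WT in the labels), carried the label batch 1 and were treated from stage 5 through 7 days of stage 6. Whether paired libraries stem from independent differentiations is not stated, so the p-values rest on a spread between libraries that may be technical. All 7 comparisons share the 2 DMSO libraries.

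A ribosome contains its proteins in fixed proportions, so their messenger RNAs are made together and in large amounts in growing cells. In mammals most of these messages begin with a C followed by a run of pyrimidines, the 5′ terminal oligopyrimidine (TOP) motif, through which the kinase mTORC1 and the RNA-binding protein LARP1 set how strongly they are translated. When assembly fails, unassembled RPL5 and RPL11 bind MDM2 and p53 accumulates, and several ribosomal protein genes, RPS19 and RPL5 among them, are mutated in Diamond-Blackfan anaemia. Ly-294002, through PI3 kinase, acts upstream of mTORC1.

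The starts of these messages are a feature that the rule did not use. In the RefSeq annotation of GRCh38.p14, 66 of the 81 genes had an entry, and 47 of them (71.2%) had a C at the annotated start followed by at least 4 further C or T bases. Among 27239 other genes of the table with an entry, 4.98% had such a run. The lines below show 10 bases before and 20 bases from the annotated start, read 5′ to 3′ on the gene's strand, with the unbroken run of C and T from the start base in capitals where it opens with C. They are the genes with an entry that passed a test with rimonabant, RPS14, and 3 pairs of a main gene and its copy, shown to compare the copies with their main genes.
RPS19 (chr19:41860245-41860274, plus strand): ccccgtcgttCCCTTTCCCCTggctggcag
RPS14 (chr5:150449720-150449749, minus strand): ccctcccactCTCTCTTTCCggtgtggagt
RPS9 (chr19:54200848-54200877, plus strand): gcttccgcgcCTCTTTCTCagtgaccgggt
RPS15 (chr19:1438386-1438415, plus strand): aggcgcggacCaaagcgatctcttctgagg
RPS29 (chr14:49598691-49598720, minus strand): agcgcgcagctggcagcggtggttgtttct
RPL13 (chr16:89560672-89560701, plus strand): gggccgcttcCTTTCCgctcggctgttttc
RPL13A (chr19:49487598-49487627, plus strand): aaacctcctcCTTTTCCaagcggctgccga
RPL28 (chr19:55385922-55385951, plus strand): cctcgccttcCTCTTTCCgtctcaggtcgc
RPS27 (chr1:153990752-153990781, plus strand): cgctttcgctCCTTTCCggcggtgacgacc
RPS27L (chr15:63157458-63157487, minus strand): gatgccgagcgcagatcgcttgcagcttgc
RPL22 (chr1:6199576-6199605, minus strand): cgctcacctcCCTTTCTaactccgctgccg
RPL22L1 (chr3:170870176-170870205, minus strand): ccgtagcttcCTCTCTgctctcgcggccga
RPL26 (chr17:8383174-8383203, minus strand): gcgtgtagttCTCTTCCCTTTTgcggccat
RPL26L1 (chr5:172958870-172958899, plus strand): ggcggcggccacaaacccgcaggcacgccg
RPS27L and RPL26L1 had no such run at the annotated start, whereas RPS27 and RPL26 did, and both RPL22 and RPL22L1 had one. RPS15 and RPS29 also lacked it at the annotated base. A missing run says only that these letters are not at this base of the annotation.

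Library totals ran from 23294377 to 30701868 reads. The cultures held little islet hormone RNA: INS lay at 0.643 to 6.37 CPM (counts scaled to a library size of 1e6 reads). GCG lay at 1.11 to 9.97 CPM and SST at 1.08 to 27.7 CPM. MAFA, a factor of mature beta cells, was at no more than 0.358 CPM, and NKX6-1 at 0.358 to 8.85 CPM. The islet markers PDX1, at 22.6 to 53.1 CPM, and CHGA, at 31.6 to 315 CPM, were higher. AFP, a fetal liver marker, had 2687 to 6702 CPM and the collagen COL3A1 443 to 1249 CPM. Other liver and mesenchymal markers were lower, such as ALB at 27.1 to 96.9 CPM and THY1 at 0.283 to 5.07 CPM. In bulk samples, fewer cells of a type and less RNA per cell cannot be told apart. The libraries also differed by base composition. For genes other than the 81, the difference between GC-rich and GC-poor transcripts (median deviation from the mean of all libraries, top 20% of genes by GC minus bottom 20%) ran from -0.37 on the log2 scale in DMSO 2 and -0.32 in DMSO 1 to 0.71 in Rimonabant 2, with the other 13 libraries between -0.19 and 0.16. Rimonabant 2 stands apart from the other libraries in this, and the 2 DMSO libraries, the reference of every comparison, lie at the opposite end.

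Ribosomal protein genes took up a nearly fixed share of the reads. The 81 genes held 2.5% of all reads, and between 2.33% (Colchicine 1) and 2.67% (Vardenafil 1) in single libraries. By group the shares were 2.33% and 2.51% with colchicine, 2.43% and 2.49% with epirizole, 2.58% and 2.4% with Ly-294002, and 2.55% and 2.39% with moxifloxacin. They were 2.6% and 2.41% with rottlerin, 2.67% and 2.48% with vardenafil, 2.52% and 2.66% with rimonabant, and 2.53% and 2.42% with DMSO. The ranges of all 7 compound groups overlapped that of the DMSO pair. An exact permutation test of 2 libraries against 2 cannot give a p below 0.333, so no p is given for these shares. Reads of the 46 large-subunit genes, without the 3 stalk genes, exceeded those of the small subunit 1.5 to 1.58 times in the 16 libraries. The lowest ratio was in Rimonabant 2 and the highest in Ly-294002 2.

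**Figure D1:**
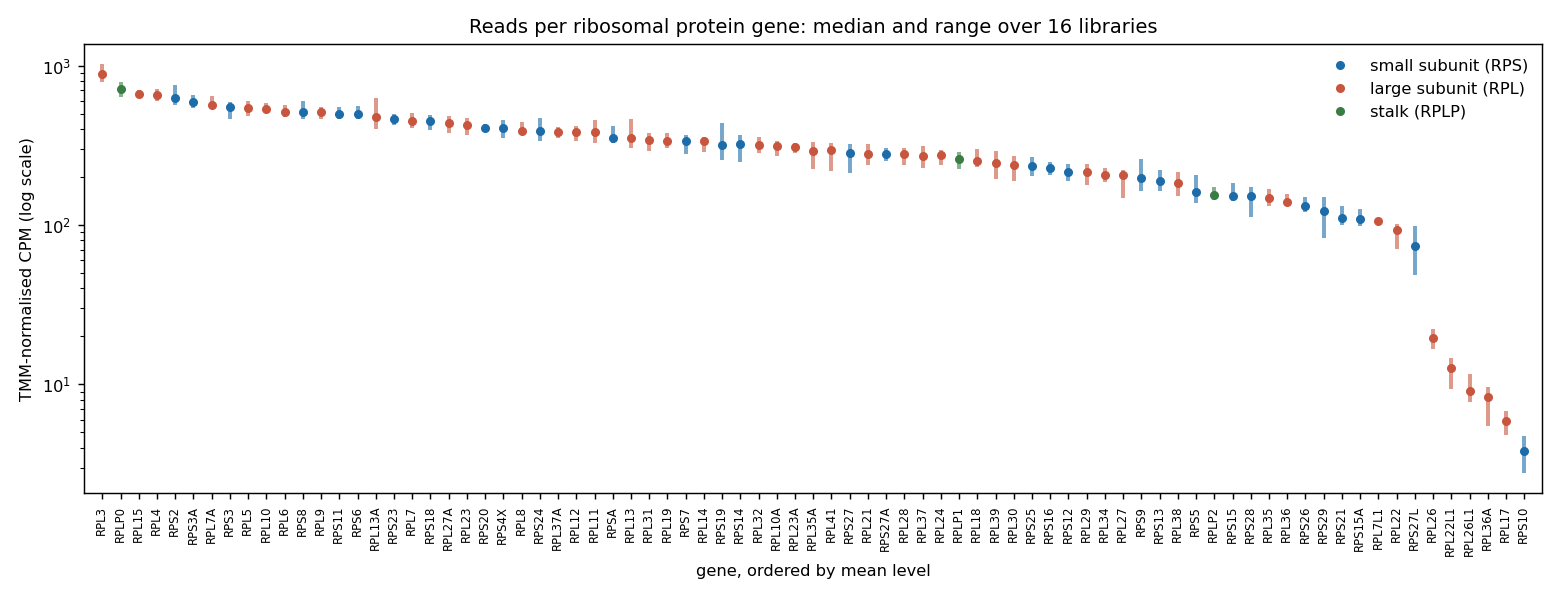
TMM-normalised CPM (log scale) of 79 of the 81 genes, ordered by mean level and coloured by subunit. Points are medians and bars span the lowest to the highest of the 16 libraries. Most genes lie above 100 CPM with bars much shorter than the distances between genes, and the 6 genes from RPL26 to RPS10 lie far below the rest.

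Mean levels, in CPM scaled by TMM factors, ran from 3.81 to 880 with a median of 289, and 72 of the 81 genes averaged over 100 CPM. Between genes, levels are compared per kilobase of coding sequence, which leaves out the untranslated ends and so raises genes with very short coding parts. On that scale RPL41, whose coding sequence of 75 bases is the shortest of the set, was highest at 3858 CPM per kilobase. RPL39, a small protein of the exit tunnel, followed at 1621 and RPL37A, a zinc-binding protein of the large subunit, at 1392, against a median of 605. RPS10, at 7.69 CPM per kilobase, and RPL17, at 10.5, were the lowest.

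Several low genes share a property of the annotation. RPS10, RPL17, RPL36A and RPL26 summed to between 1690 and 8550 reads over 16 libraries, against a median of 128150 for the 81 genes. In GENCODE v29 each of these 4 is overlapped on its own strand by exons of another gene row that holds 0 reads, RPS10-NUDT3 for RPS10, RPL17-C18orf32 for RPL17, RPL36A-HNRNPH2 for RPL36A and AC135178.2 for RPL26. Whether reads shared by such pairs were left uncounted was not tested, because the counting rule for them is not given in the sources used here. The counts of these 4 genes are therefore uncertain as levels. The property does not set low genes apart. Rows at 0 reads also overlap RPL3 (SNORD43), with 389032 reads, and RPS15A (AC138811.2), with 49398, on their own strand. RPL22L1 with 5359 reads and RPL26L1 with 4138, also low, are copies of other genes and are described with them below.

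Pseudogene copies can also take reads. Of 1601 rows named as ribosomal protein pseudogenes, 995 had reads, and together they held 257854 reads, or 2.34% of the number on the 81 genes. RPS2P5 had 20951 reads, 7.47% of the count of RPS2, and RPL29P4 had 12650, 13.5% of the count of RPL29. RPL36AP37 had 3702 reads, 102% of the count of RPL36A itself, so the value of RPL36A depends on how reads were split.

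The 81 genes varied little over the 16 libraries. The standard deviation (SD) of log2 CPM had a median of 0.1 and ran from 0.04 to 0.27. For the 65 members between the 10th and 90th percentile of the set's own level the median SD was 0.1, against 0.12 for 2485 other genes in the same range of levels. The steadiest was RPL7L1, a relative of RPL7, whose level ran from 101 to 111 CPM with a median of 106. RPL15, RPS20, RPL10, which joins the large subunit late in assembly, and RPL23A, at the mouth of the exit tunnel, followed with SDs between 0.05 and 0.06. Among the most variable were RPS29, a zinc-binding protein of the small subunit (0.27), RPS27L (0.25), RPS10 (0.22) and RPL22L1 (0.19). RPS10 is the gene of fewest reads, with 64 to 146 per library, whereas RPS29 had 52386 reads in all. Library pairs of a group differed by a median of 0.04 on the log2 scale with rottlerin and 0.14 with moxifloxacin over those 65 members, against 0.12 and 0.087 for the other genes of like level. With DMSO these medians were 0.085 and 0.072.

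Each compound was then compared with DMSO by edgeR's quasi-likelihood test over 24515 genes, with p-values adjusted by Benjamini and Hochberg over all of them and a threshold of 0.05. All 81 members passed the filter on low counts. In rimonabant cultures 8 of the 81 genes rose and 0 fell, or 9.88% of the members, against a background of 7.8% of all tested genes called, 5.03% higher and 2.77% lower. Before adjustment 30 members were at p under 0.05 (37%, background 24.8%), 16 higher (19.8%, background 13.5%) and 14 lower (17.3%, background 11.3%), and DESeq2 called 12 higher (background 7.09%) and 3 lower (background 4.89%), against 12% of all genes in either direction. In edgeR the members' share of calls was near that of all genes.

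In the other 6 comparisons edgeR called 0 of the 81 genes. The background was 0.196% of tested genes with colchicine, 0.00816% with rottlerin, and 0% with epirizole, Ly-294002, moxifloxacin and vardenafil. DESeq2 called 4 members with colchicine (RPS19, RPS29, RPS24 and RPL38), against 3.78% of all tested genes, and 1 with rottlerin (RPS29), against 2.77%. It called 0 with the other 4 compounds, against 0.253% of all genes with moxifloxacin, 0.00816% with vardenafil and 0% with epirizole and Ly-294002. At an unadjusted p under 0.05 there were 22 members with colchicine (27.2%, background 17.5%), 24 with rottlerin (29.6%, background 14.8%) and 12 with moxifloxacin (14.8%, background 11.9%). There were 9 with vardenafil (11.1%, background 5.22%), 2 with Ly-294002 (2.47%, background 4.69%) and 1 with epirizole (1.23%, background 5.26%). The joint test of all 7 compounds called 0 members in edgeR and 3 in DESeq2 (RPS19, RPS9 and RPS29), with 12 members at an unadjusted p under 0.05 in edgeR, against 0.00408% of all genes called by edgeR, 4.96% called by DESeq2 and 12.9% at that unadjusted p in edgeR. The smallest adjusted p of a member in the joint edgeR test was 0.151, for RPS29.

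The set as a whole stayed near 0. The median log2 change over the 81 genes was -0.05 with colchicine, -0.03 with epirizole, -0.01 with Ly-294002 and -0.03 with moxifloxacin. It was 0.0075 with rottlerin, 0.05 with vardenafil and 0.0051 with rimonabant, beside medians between -0.01 and 0.0036 over all tested genes. The median size of change of a member, without its sign, was 0.18 with rimonabant and between 0.056 and 0.13 with the others, against a median standard error (SE) of 0.093. The members' spread around the median was therefore wider than the shift of the median itself.

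**Figure D2:**
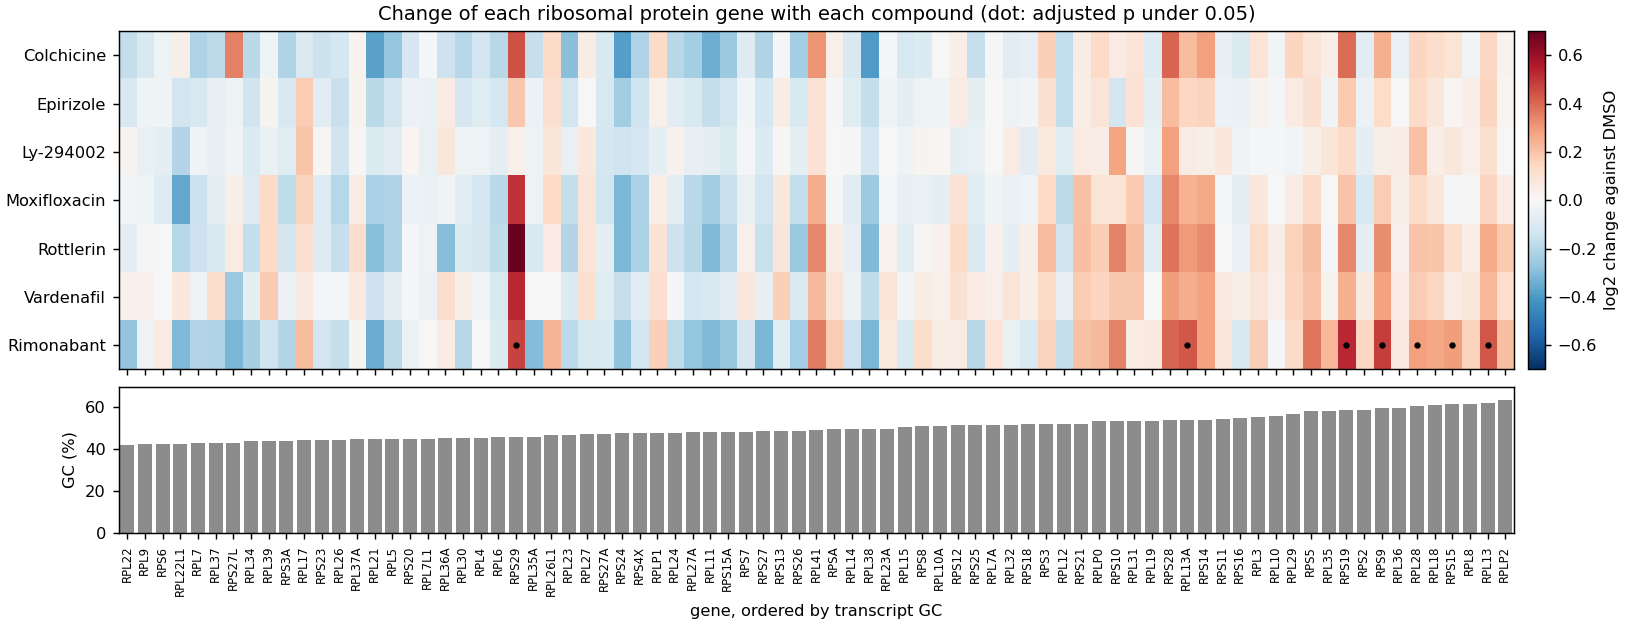
Log2 change of 79 of the 81 genes (columns, ordered by the GC content of the transcript, drawn as grey bars in percent) with each compound against DMSO (rows). A dot marks an adjusted p under 0.05. The 7 dots are all in the rimonabant row, 6 of them among the genes of highest GC, and red columns on the right face blue ones on the left in several rows.

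Of the small subunit, 4 genes rose with rimonabant. RPS19, needed for maturation of the small subunit and the gene most often mutated in Diamond-Blackfan anaemia (ENSG00000105372, chromosome 19, 41859918 to 41872926, plus strand, GENCODE v29 on GRCh38), had 345 and 435 CPM with rimonabant, against 288 and 254 CPM with DMSO. Both rimonabant libraries were above both DMSO libraries, with Rimonabant 2 the highest of all 16. The log2 change was 0.53 (SE 0.11, adjusted p 0.0159). RPS9, a core protein of the small subunit near the entry of the messenger RNA, had 216 and 261 CPM with rimonabant, against 179 and 162 CPM with DMSO, again without overlap. Its log2 change was 0.48 (SE 0.1, adjusted p 0.0171). RPS15, on the head of the small subunit near the decoding site, had 175 and 184 CPM, against 150.0 and 143 CPM with DMSO, a log2 change of 0.29 (SE 0.078, adjusted p 0.0366). RPS29 had 132 and 121 CPM, against 99.1 and 82.9 CPM with DMSO, a log2 change of 0.47 (SE 0.13, adjusted p 0.0409).

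Of the large subunit, 4 genes rose with rimonabant, RPL13, RPL13A and RPL28 among them. RPL13 had 377 and 464 CPM, against 317 and 304 CPM with DMSO, a log2 change of 0.44 (SE 0.1, adjusted p 0.0258). RPL13A, which also acts in a complex that silences translation of inflammatory messages, had 513 and 621 CPM, against 440 and 399 CPM with DMSO, a log2 change of 0.44 (SE 0.11, adjusted p 0.0274). In both genes Rimonabant 2 was the highest of the 16 libraries and the groups did not overlap. RPL28 had 305 and 296 CPM, against 256 and 236 CPM with DMSO, a log2 change of 0.29 (SE 0.074, adjusted p 0.0332). The largest difference below DMSO was that of RPL21, at -0.35, with 262 and 239 CPM with rimonabant, against 314 and 322 CPM with DMSO (adjusted p 0.0564).

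The calls changed when a library was left out. With DMSO 1, DMSO 2 or Rimonabant 2 left out, edgeR called 0 members with rimonabant and 0% of all genes. At an unadjusted p under 0.05 there were then 24 members without DMSO 1 (background 18.6%), 16 without DMSO 2 (background 15.4%) and 16 without Rimonabant 2 (background 11.7%). With Rimonabant 1 left out, so that Rimonabant 2 stood alone for the compound, 22 members were called, 7 of them among the 8, against 14.8% of all genes. Of the 22, 10 were higher (background 8.45%) and 12 lower (background 6.37%). For each of the 8 genes both rimonabant libraries lay above both DMSO libraries, so leaving 1 library out was no test of their direction. Their median log2 change, 0.44 in the fit of all libraries, was 0.49 without DMSO 1, 0.36 without DMSO 2, 0.49 without Rimonabant 1 and 0.32 without Rimonabant 2.

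The 8 genes lie at the GC-rich end of the set, with 1 exception. When the 81 genes were split by transcript GC into 3 classes of 27, 7 of the 8 were in the highest class (52.3% to 63.6% GC), and RPS29, at 45.9%, was in the lowest (42.1% to 47.3%). With rimonabant the median log2 change was -0.14 in the lowest class, -0.1 in the middle class and 0.23 in the highest. The medians of other genes in the same GC ranges were -0.15, 0.0059 and 0.3. In the highest class 24 of 27 members were above DMSO, in the lowest 7 of 27.

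A slope on GC was present with each compound. Spearman's rho between log2 change and transcript GC over the 81 genes, which share the libraries of each comparison, was 0.5 with colchicine, 0.47 with epirizole, 0.46 with Ly-294002, 0.44 with moxifloxacin, 0.52 with rottlerin, 0.49 with vardenafil and 0.62 with rimonabant. Over 14777 other genes it ran from 0.39 with Ly-294002 to 0.75 with rimonabant. The members of lowest GC, RPL22 (42.1%), RPL9 (42.4%), RPS6 (42.6%), the target of S6 kinase, and RPL22L1 (42.6%), had log2 changes of -0.28, -0.03, 0.06 and -0.31 with rimonabant. Those of highest GC, RPLP2 (63.6%), RPL13 (62.1%), RPL8 (61.8%) and RPS15 (61.6%), had 0.21, 0.44, 0.16 and 0.29. The first 4 stand on both sides of 0 and the last 4 all above it.

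**Figure D3:**
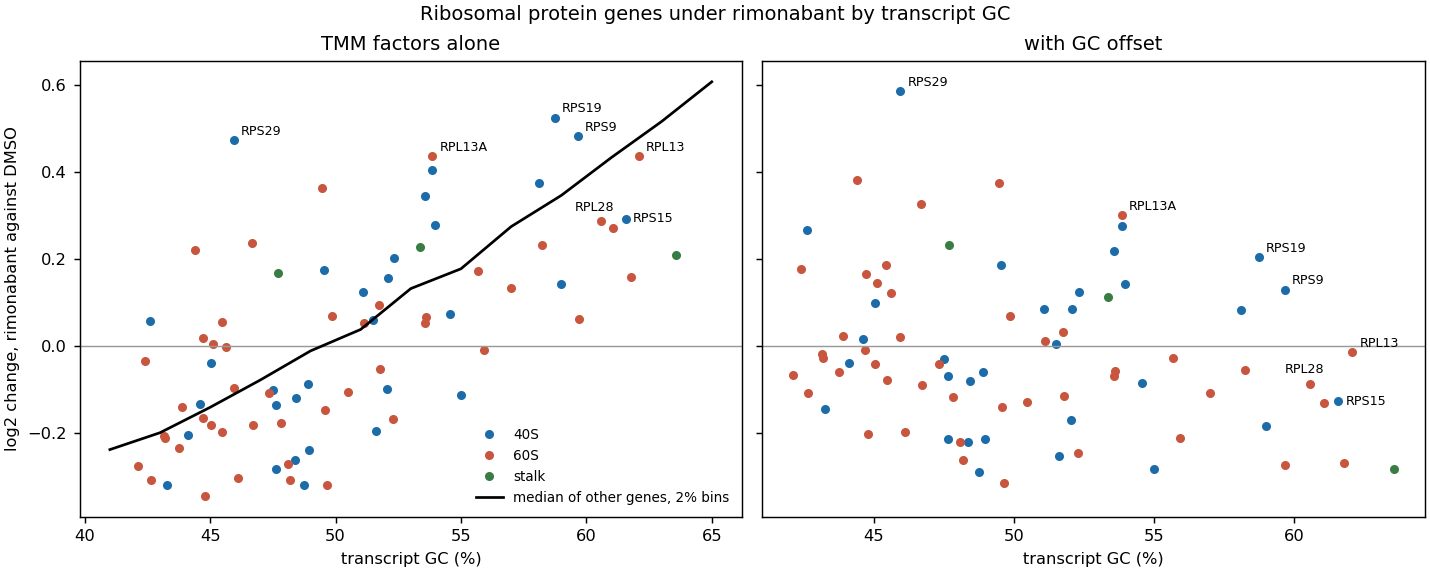
Log2 change of 79 of the 81 genes in rimonabant against DMSO cultures (vertical axis) by transcript GC in percent (horizontal axis), without a GC offset on the left and with it on the right. Colours give the subunit, the black line is the median of the other genes in bins of 2 percentage points, and names mark the 7 of them with an adjusted p under 0.05 in the fit on the left. RPS29, RPL13A, RPS19 and RPS9 lie above the rising line, and RPL13, RPL28 and RPS15, which lie below it, are below 0 with the offset.

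With an offset per gene and library for the smooth dependence on GC, edgeR called 0 of the 81 genes with rimonabant, with 24 at an unadjusted p under 0.05 (background 9.66%), and 5 genes in all, 0.0204% of those tested. Spearman's rho over the 81 genes became -0.2. RPS29 was then 0.59, RPL13A 0.3, RPS19 0.2 and RPS9 0.13 above DMSO on the log2 scale. In all, 4 of the 8 changed sign, among them RPL13 at -0.01, RPL28 at -0.09 and RPS15 at -0.13. RPS29 was the member farthest from 0 under the offset (adjusted p 0.258).

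Chromosome 19, which holds 12 of the 81 genes, gave 6 of the 8 calls. RPS19, RPS9, RPS15, RPL13A and RPL28 are among these. The 12 genes had a median transcript GC of 59.2%, against 48.4% for the other 69, and their median log2 change with rimonabant was 0.33, against -0.05. With the GC offset these medians were -0.06 and -0.04.

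**Figure D4:**
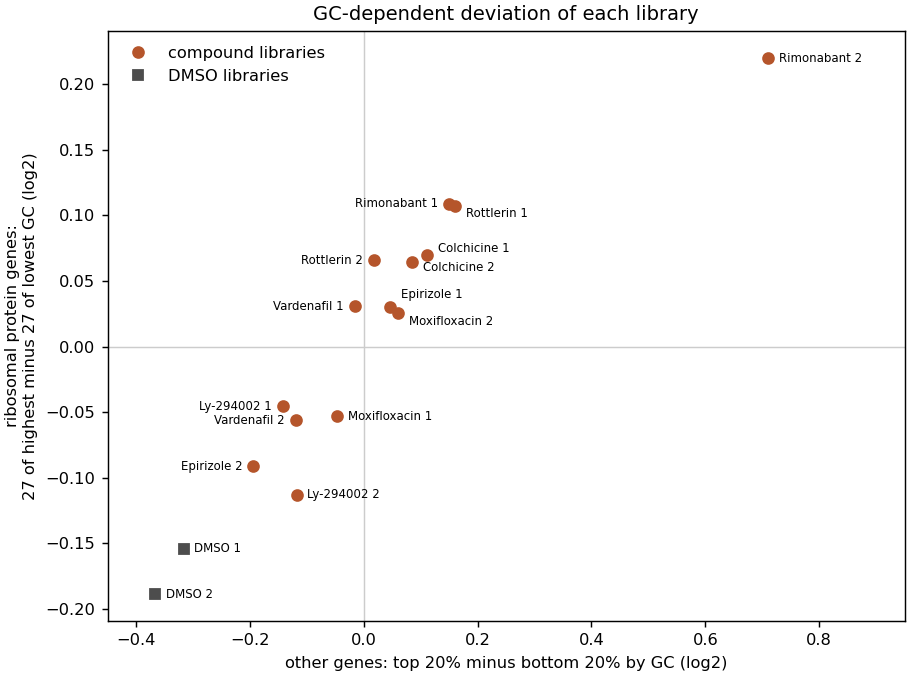
GC-dependent deviation of each of the 16 libraries on the log2 scale, for genes other than the 81 (horizontal axis, top 20% minus bottom 20% of genes by transcript GC) and for the 81 ribosomal protein genes (vertical axis, 27 genes of highest minus 27 of lowest GC). Circles are compound libraries and squares DMSO libraries. Rimonabant 2 is at the upper right (0.71 and 0.22) and the DMSO libraries are at the lower left.

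Among the 81 genes alone, the same 3 libraries lay at the ends. The highest minus the lowest GC class was 0.22 in Rimonabant 2 and 0.11 in Rimonabant 1, against -0.15 in DMSO 1 and -0.19 in DMSO 2. The other 12 libraries lay between -0.11 and 0.11. Mitochondrially encoded RNA moved along: its summed level was 21798 and 14152 CPM in the rimonabant libraries, against 26523 and 28364 CPM in the DMSO libraries, where Rimonabant 2 was the lowest and DMSO 2 the highest of the 16. Of the 13 mitochondrial genes tested, 4 fell with rimonabant (background 2.77%), and MT-ATP8 had a log2 change of -1.58 (adjusted p 0.0437). All 13 lay below DMSO with each of the 7 compounds, with median log2 changes from -0.24 with epirizole to -0.79 with rimonabant. The part of mitochondrial RNA content in the ribosomal protein calls was not tested. Markers of other cells did not separate rimonabant from DMSO. The 6 liver and gut genes summed to 7806 and 4912 CPM with rimonabant, against 6805 and 5377 CPM with DMSO. The 8 mesenchymal genes summed to 2004 and 1901 CPM, against 2005 and 1866 CPM. With colchicine, moxifloxacin and rottlerin the mesenchymal sum lay below both DMSO libraries. With epirizole, Ly-294002 and moxifloxacin the liver and gut sum lay above both.

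RPS29 was the member highest above DMSO with 4 of the other compounds, without passing the threshold. It had 150.2 and 144 CPM with rottlerin, against 99.1 and 82.9 CPM with DMSO, a log2 change of 0.69 (SE 0.13, adjusted p 0.0604). The colchicine libraries had 124 and 124 CPM, a log2 change of 0.45 (adjusted p 0.106), and the moxifloxacin libraries 131 and 127 CPM, one of 0.5 (adjusted p 0.294). With vardenafil the 2 libraries had 149 and 113 CPM, a log2 change of 0.53 (adjusted p 0.89). Epirizole gave 111 and 96.6 CPM and Ly-294002 102 and 84.3 CPM, and both overlapped the DMSO range. Because DMSO 2 is the lowest of the 16 libraries for RPS29, and both DMSO libraries enter every comparison, these values are not independent of each other.

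**Figure D5:**
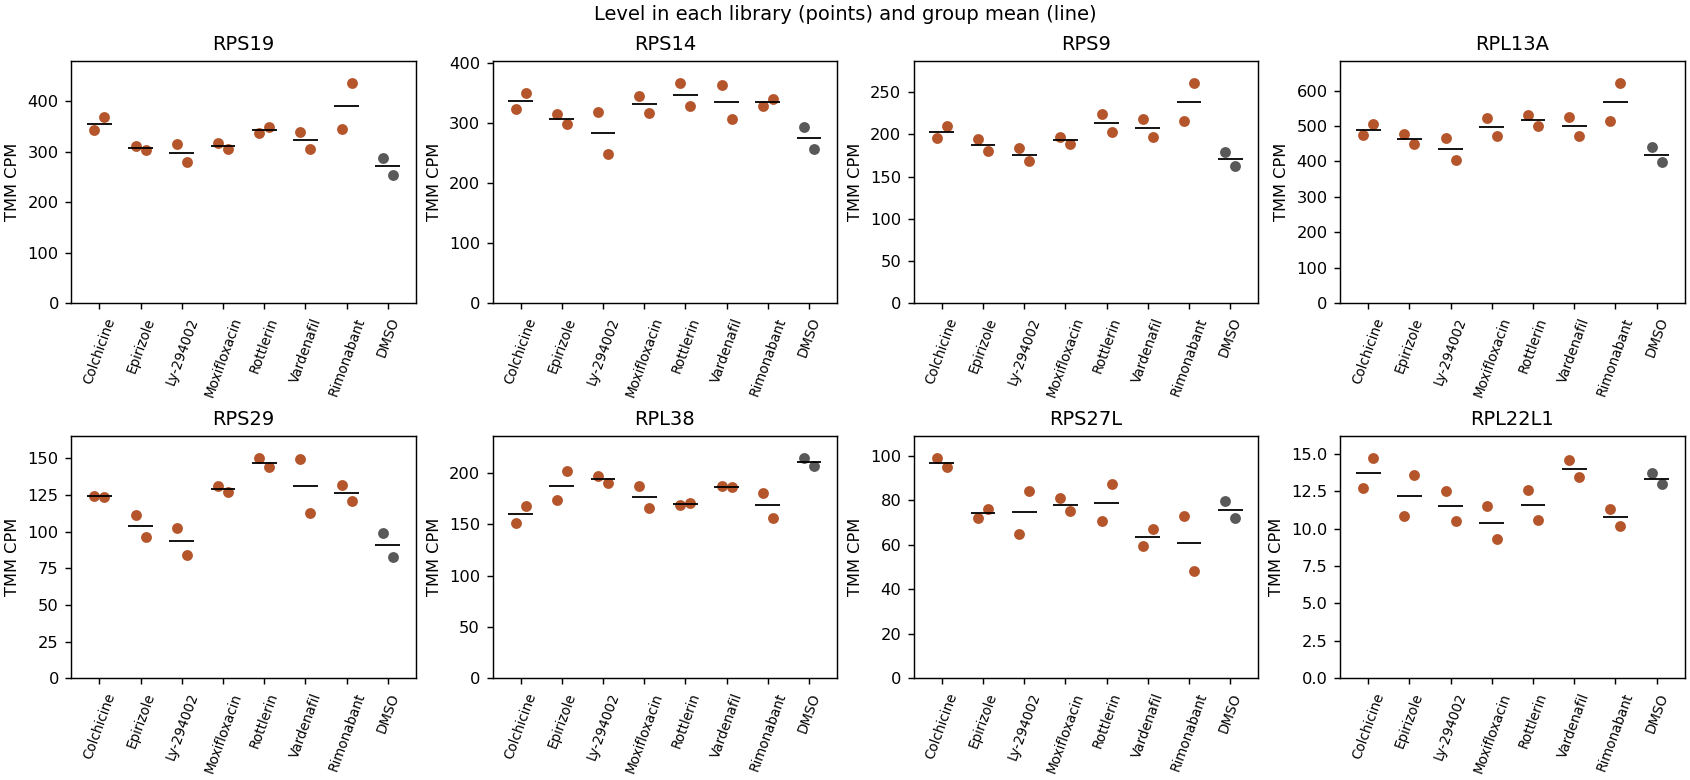
TMM-normalised CPM of 8 genes in each library (points, 2 per group) with the group mean (line). RPS29 is near 150 CPM with rottlerin and below 100 CPM with DMSO, RPS27L is highest with colchicine, and RPL38 is highest with DMSO.

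The lowest values against DMSO fell to a small group of genes. RPL38, which in mice is needed for translation of Hox messages, had 151 and 168 CPM with colchicine, against 214 and 207 CPM with DMSO. Its log2 change of -0.4 (SE 0.097, adjusted p 0.0667) was the lowest of the 81 genes with colchicine, and the groups did not overlap. RPS24, a Diamond-Blackfan gene of the small subunit, was lowest with rottlerin (363 and 371 CPM, log2 change -0.31, adjusted p 0.162) and with epirizole (344 and 427 CPM, log2 change -0.24, adjusted p 0.901), against 446 and 466 CPM with DMSO. RPL22L1 was lowest with moxifloxacin, at -0.36 (adjusted p 0.429), and with Ly-294002, at -0.21 (adjusted p 0.969), and RPS27L with vardenafil, at -0.26 (adjusted p 0.897). RPS28, a small protein at the exit of the messenger RNA, was highest with epirizole, at 0.21 (adjusted p 0.901), and with Ly-294002, at 0.29 (adjusted p 0.969). None of these passed the threshold.

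The 2 genes that mark the set, RPS19 and RPS14, were high in every library. RPS14, whose loss underlies the anaemia of the 5q- syndrome (ENSG00000164587, chromosome 5, 150442635 to 150449756, minus strand), ran from 249 CPM in Ly-294002 2 to 367 CPM in Rottlerin 1, with a median of 321. Its log2 changes were 0.29 with colchicine, 0.15 with epirizole, 0.04 with Ly-294002, 0.27 with moxifloxacin, 0.33 with rottlerin, 0.28 with vardenafil and 0.28 with rimonabant, with adjusted p-values from 0.153 to 0.994. RPS19 ran from 254 CPM in DMSO 2 to 435 CPM in Rimonabant 2. Apart from rimonabant its largest difference was with colchicine, 342 and 367 CPM against 288 and 254 CPM with DMSO, a log2 change of 0.39 (adjusted p 0.0958).

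The stalk proteins RPLP0, RPLP1 and RPLP2 form the arm of the large subunit that recruits the factors of elongation. RPLP0 had 756 and 793 CPM with rimonabant, against 688 and 634 CPM with DMSO, and RPLP2 had 173 and 172 CPM, against 151 and 147 CPM. RPLP1 had 279 and 280 CPM, against 257 and 241 CPM. Both rimonabant libraries were above both DMSO libraries for all 3, and the log2 changes were 0.23, 0.21 and 0.17, with adjusted p-values of 0.0824 for RPLP0, 0.156 for RPLP2 and 0.243 for RPLP1. All 3 also lay above both DMSO libraries with rottlerin and with vardenafil. With the GC offset the changes with rimonabant were 0.11 for RPLP0, -0.28 for RPLP2 and 0.23 for RPLP1. The count of members whose 2 libraries both lay above both DMSO libraries was 28 of 81 with rimonabant (34.6%, background 26.8%), and 26 lay below both (32.1%, background 26.4%). With colchicine these counts were 18 (22.2%, background 24.5%) and 33 (40.7%, background 25.8%), and with rottlerin 26 (32.1%, background 23.6%) and 29 (35.8%, background 24.4%). They were 14 (17.3%, background 23.2%) and 24 (29.6%, background 24.4%) with moxifloxacin, and 21 (25.9%, background 19.4%) and 16 (19.8%, background 20%) with vardenafil. With epirizole they were 12 (14.8%, background 19%) and 19 (23.5%, background 19%), and with Ly-294002 6 (7.41%, background 19.5%) and 16 (19.8%, background 19.5%).

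RPL5 and RPL11, the pair that binds MDM2, had no call. RPL11 had 326 and 359 CPM with colchicine, against 414 and 453 CPM with DMSO, a log2 change of -0.34 (adjusted p 0.101). RPL5 had 487 and 499 CPM with colchicine, against 590 and 600.3 CPM with DMSO, a log2 change of -0.27 (adjusted p 0.127). In neither gene did the 2 groups overlap. Of 12 genes on a list of the ribosomal stress and p53 response, 2 rose and 0 fell with colchicine (background 0.196% in either direction). At an unadjusted p under 0.05 there were 8 (background 17.5%). The median log2 change of the 12 was 0.38, beside -0.01 over all tested genes. CDKN1A, the cell-cycle inhibitor p21, had 106 and 114 CPM with colchicine, against 53.3 and 47.5 CPM with DMSO, a log2 change of 1.13 (SE 0.1, adjusted p 0.000297). BAX, a promoter of apoptosis, had 60.3 and 65.5 CPM, against 40.4 and 35.7 CPM, a log2 change of 0.73 (adjusted p 0.0401). CDKN1A also rose with rottlerin, by 0.71 on the log2 scale (adjusted p 0.0484), and with rimonabant, by 0.39 (adjusted p 0.0343), and it was the 1 gene of the table called in the joint test. BAX rose with rimonabant by 0.46 (adjusted p 0.0347). With the GC offset 1 of these 5 calls was left, CDKN1A with colchicine at 0.93 (adjusted p 0.00102).

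RPS27L, a copy of RPS27 that p53 activates, was the member of the set on that path. It had 98.8 and 94.9 CPM with colchicine, the 2 highest values of the 16 libraries, against 79.7 and 71.7 CPM with DMSO, a log2 change of 0.36 (SE 0.17, adjusted p 0.308), and 0.48 with the GC offset. It had 59.5 and 67.0 CPM with vardenafil and 73.0 and 48.3 CPM with rimonabant, a log2 change of -0.32 (adjusted p 0.278). Rimonabant 1 lay within the DMSO range and Rimonabant 2 was the lowest of the 16 libraries, and without Rimonabant 1 the value was -0.65 and passed the threshold. Set against RPS27, RPS27L stood at 37.9% and 34.8% with colchicine, against 24.8% and 24.2% with DMSO, and over all libraries it ran from 19.6% in Vardenafil 1 with a median of 25.7%.

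The other copies were also below their main genes. RPL22L1, which is repressed by the RPL22 protein in mice, had 10.3% of the CPM of RPL22 in Moxifloxacin 2 and 17% in Colchicine 2, with a median of 13.7%. The moxifloxacin libraries had 11.5 and 9.3 CPM of RPL22L1, against 13.7 and 13 CPM with DMSO. RPL7L1 stood at 21.6% to 27.4% of RPL7, with the highest value in Rimonabant 2. RPL26L1 stood at 37.3% to 69.3% of RPL26, a ratio that rests on 203 to 328 reads per library for RPL26L1 and on the low count of RPL26 described above. In the edgeR fit of all libraries none of the 4 copies and none of their main genes passed the threshold with any compound. DESeq2 also called none of these 8 genes.

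Among the 66 genes with an annotated start, the 47 with the pyrimidine run and the 19 without it lay close together. With rimonabant their median log2 changes were 0.02 and -0.0032, with colchicine -0.02 and -0.07, and with Ly-294002 -0.0054 and -0.01. Of the 7 called genes with an entry, 5 had the run, RPS19, RPS9, RPL13, RPL13A and RPL28, and RPS15 and RPS29 had none. No test was made between these groups of genes.

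Genes that work with the ribosomal proteins gave calls mostly with rimonabant, as did all tested genes. The background was 7.8% with rimonabant (5.03% higher and 2.77% lower), against at most 0.196% with any other compound. Of 30 tested translation genes that also carry a TOP motif in mammals, 2 rose and 1 fell with rimonabant, with a median log2 change of -0.15. FAU, which encodes a ubiquitin-like protein fused to a protein of the small subunit, had 60.9 and 76.5 CPM with rimonabant, against 52.7 and 53.5 CPM with DMSO, a log2 change of 0.37 (adjusted p 0.0461), and EIF3E, a subunit of initiation factor eIF3, one of -0.41 (adjusted p 0.0319). FAU has 57.6% GC and EIF3E has 38.2%.

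Of 40 tested genes of assembly and ribosomal RNA synthesis, 3 rose with rimonabant, TCOF1, a factor of ribosomal RNA transcription (0.47, adjusted p 0.0294), BOP1, a factor of large-subunit maturation (0.94, adjusted p 0.043), and EIF6, which keeps the subunits apart (0.47, adjusted p 0.0407). RIOK2, a kinase of small-subunit maturation, fell (-0.46, adjusted p 0.042). With rimonabant 5.03% of all tested genes were called higher and 2.77% lower. Of 15 genes of the mTORC1 branch that controls TOP messages, RPS6KB2, RPTOR and TSC2 rose with rimonabant by 0.61, 0.52 and 0.49 on the log2 scale, and RPS6KB1 and LARP4 fell by 0.38 and 0.35. Among these 9 called genes those that rose had 59.3% to 65.2% GC and those that fell 35.8% to 36.9%. With Ly-294002, the compound nearest to this branch, edgeR called 0 of these 15 genes and 0% of all tested genes. At an unadjusted p under 0.05 there were 0 of the 15 (background 4.69%), and their median log2 change was -0.05. DESeq2 also called 0 of them and 0% of all genes with Ly-294002. Because neither method called any gene with this compound, the counts cannot tell this branch from other genes. With the GC offset edgeR called 0 genes of the TOP, assembly and mTORC1 lists with rimonabant, against 0.0204% of all tested genes.

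Of 77 tested genes for proteins of the mitochondrial ribosome, 5 rose (background 5.03%) and 3 fell (background 2.77%) with rimonabant, 8 in all. With the GC offset 0 were called (background 0.0204%). Without the offset the median log2 change of the 77 was 0.01, and 29 were at an unadjusted p under 0.05 (background 24.8%). MRPS12 (0.87), MRPL41 (0.71) and MRPL4 (0.6) rose, and MRPL1 (-0.61) fell, with adjusted p-values from 0.0343 to 0.0444. MRPL41 has 71.9% GC and MRPL1 39.1%. Cell-cycle genes, which follow the growth of a culture, gave a summed level from 219 CPM in Moxifloxacin 2 to 449 CPM in Ly-294002 1, with 401 and 449 CPM in the rimonabant libraries, against 401 and 374 CPM in the DMSO libraries. The 8 tested cell-cycle genes had a median log2 change of 0.12 with rimonabant and -0.33 with moxifloxacin, and edgeR called none of them with any compound. At an unadjusted p under 0.05 there was 1 gene each with epirizole (background 5.26%), moxifloxacin (background 11.9%) and rimonabant (background 24.8%). DESeq2 called 1 of the 8, higher with rimonabant (background 7.09%).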

How the data were processed

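Bulk total RNA of 16 cultures, 2 for each of 7 compounds and DMSO, was measured as read counts per gene. Per the labels' protocols, libraries were depleted of ribosomal RNA and sequenced from both ends. The tools named there are FastQC 0.11.8, Trimmomatic 0.38, the aligner STAR 2.7.1a, Picard 2.20.4 and StringTie 2.0.4. The same protocols name featureCounts 1.6.0 among the counting tools, and the submitters' processing notes name HTSeq and GRCh38. Which annotation release and strand setting were used, and how multiply mapped reads were treated, is not given in the sources used here, so near-identical copies and overlapping genes are uncertain. The deposited values are raw counts, not normalised by the authors, and 16187 of the 62754 rows carry no symbol.

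The test was edgeR 4.0.16 in R 4.3.3. filterByExpr on the 8 groups kept 24515 genes, which hold 99.9% of the reads. Library scaling used TMM. A single robust quasi-likelihood fit took in all 16 libraries, with a coefficient for each group, 8 residual degrees of freedom and a common biological coefficient of variation of 0.165. Tests are two-sided, and adjusted p-values are Benjamini-Hochberg values across every tested gene, threshold 0.05. Log2 changes are compound minus DMSO, and levels are TMM-scaled CPM except for summed lists and marker genes, which are plain CPM. Transcript GC and coding length come from 1 transcript per gene of GENCODE v29, the shortest complete one with the principal coding length, and 95.3% of tested genes and all 81 members had a value. The GC offset is a natural spline with 4 degrees of freedom of each library's deviation on GC, fitted over genes with a mean of at least 1 on the log2 CPM scale. The scripts were tested on simulated data with known changes.

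The alternatives were DESeq2 1.42.0, RLE factors, library totals, no filter, the GC offset, only the 2 groups compared, the replicate number as a block, and each library left out. Same-numbered libraries showed little shared deviation, and the main fit did not pair them. Whether the numbers pair them by design is not known. Named genes are RPS19 and RPS14, members past the threshold, copies and their main genes, the extremes of level per coding length, of SD and of GC, the largest difference in each direction per comparison, and up to 4 called genes of other lists. RPLP0, RPLP1, RPLP2, RPL5, RPL11 and LARP4 were added after their values were seen. A few genes included in the counts are not reported here. The members and all lists were chosen with earlier results of these data known.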

Additional observations from a re-analysis of the deposited data

How the results depend on the processing

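In edgeR the number of members called with rimonabant was 8, and the alternatives gave 8 with RLE factors, 11 with library totals, 13 without a filter on low counts, 15 with DESeq2, 7 with the replicate block, 0 with the GC offset and 0 with only the 2 groups. The share of all tested genes called was 7.8% in edgeR, 7.75% with library totals, 6.01% without a filter, 12% with DESeq2, 4.45% with the block and 0.19% with only the 2 groups. Leaving out 1 library at a time gave 0 to 22, with 22 only when Rimonabant 1 was left out. Of the 8 genes, 8 were above DMSO under each of these settings except the GC offset, where 4 were below it, among them RPL13 at -0.0149, RPL28 at -0.0874 and RPS15 at -0.1268. Their rimonabant libraries did not overlap those of DMSO, so a left-out library could not test this direction. With colchicine, where edgeR called 0, DESeq2 called 4 and the fit without a filter 7 (3.51% of all genes). With rottlerin DESeq2 called 1 (2.77% of all genes) and the fit without a filter 5, and without a filter moxifloxacin and vardenafil gave 1 each. The joint test called 0, but 3 with DESeq2, 8 without a filter and 0 to 1 with a library left out. Under the remaining settings these counts stayed at 0. In the joint test DESeq2 called 4.96% of all genes. For rottlerin, moxifloxacin, vardenafil and the joint test, the share of all genes called without a filter is not given here. Their counts without a filter are therefore not read as a result about the members. Where the cause of a difference is not in the setting's construction, the cause was not tested. The replicate block is given although same-numbered libraries showed little shared deviation. Over 28 pairs of groups the correlation of their deviations ran from -0.28 to 0.23, with 5 above 0.1. The median over the 81 genes with rimonabant ran from -0.04 with the GC offset to 0.06 with library totals. With 2 libraries a group, a left-out library leaves 1, which is assumed to vary like the other groups.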
